A study of Mus musculus with 23 samples.

Results

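Eph receptors and their ephrin ligands that position cells along the crypt and villus were described in adult mouse intestinal epithelium. The 10 genes were chosen by name, as 5 EphB receptors (Ephb1, Ephb2, Ephb3, Ephb4 and Ephb6), 3 ephrin-B ligands (Efnb1, Efnb2 and Efnb3), the receptor gene Epha2 and its ligand gene Efna1. All 10 were found among the 22517 named genes of both deposited tables. RNA came from 3 groups of 3 libraries. The first was sorted Lgr5-GFP-high intestinal stem cells (ISC) from Eed+/+ mice carrying the Lgr5-EGFP-IRES-CREERT2 allele. The second was villus epithelium of EedF/F; Villin-CRE mice, called Eed-null here, and the third was villus epithelium of EedF/F; Cre- mice, called wild-type here. Eed belongs to the core of Polycomb repressive complex 2, the writer of the repressive histone mark H3K27me3. All mice were adults of a mixed B6;129 background and had received 1 to 2 mg tamoxifen on 5 days, and tissue was taken from the proximal intestine. The Villin promoter drives Cre in epithelium, so Eed in other cells of the tissue was not targeted. Villus epithelium was released with EDTA and frozen, whereas ISC were also dissociated with enzyme and sorted. The genotype of ISC differed from that of wild-type villus too, so cell type, handling and genotype cannot be told apart. Likewise, Cre and the loss of Eed cannot be told apart between the villus groups.

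Eph receptors are membrane tyrosine kinases that bind ephrins on neighbouring cells, and both partners can signal on contact, usually by repulsion. In the intestine, EphB2 and EphB3 are known from crypt cells that receive Wnt signals, while ephrin-B1 and ephrin-B2 are known from differentiated cells nearer the villus, and the pairing keeps these compartments apart. Ephrin-B ligands span the membrane, whereas ephrin-A ligands such as ephrin-A1 are held by a lipid anchor.

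Levels are in RPKM (read counts scaled to the length of the gene and to library size), with 1 authors' value per group. No spread between libraries is therefore available, and library depth is unknown. Genes count as called if the authors tested them and their q, an adjusted p, was 0.05 or less. Eed itself was lower in Eed-null villus, at 3.00 RPKM versus 9.17 RPKM in wild-type villus (q = 6.29e-06 in the authors' deposited table). The stem cell receptor gene Lgr5 had 18.3 RPKM in ISC versus 0.607 RPKM in wild-type villus. The enterocyte phosphatase gene Alpi had 15.8 RPKM in ISC versus 1146 RPKM in wild-type villus. Both labels thus went with their defining markers, but ISC were sorted on GFP from the Lgr5 allele, so Lgr5 is no independent check. Both villus groups were bulk tissue, in which fewer cells of a type and less RNA per cell cannot be told apart.

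The promoters of the 4 genes with the largest differences between ISC and wild-type villus are shown, because Polycomb complexes in mammals are known to act at promoters rich in CG dinucleotides. RefSeq promoters, 250 bases before to 50 bases after a start site on build GRCm38.p6, matched 9 of the 10 genes, without Efnb3. In the sequences, read 5′ to 3′ along the gene's strand, capitals mark CG dinucleotides.
Ephb2, chr4:136835963-136836262, minus strand: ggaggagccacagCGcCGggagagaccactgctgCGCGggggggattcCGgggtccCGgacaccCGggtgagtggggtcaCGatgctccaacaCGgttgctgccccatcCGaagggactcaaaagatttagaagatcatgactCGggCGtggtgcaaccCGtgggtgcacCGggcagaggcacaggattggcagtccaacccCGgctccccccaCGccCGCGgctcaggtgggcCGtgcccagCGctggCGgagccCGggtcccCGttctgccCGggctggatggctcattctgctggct
Ephb3, chr16:21204545-21204844, plus strand: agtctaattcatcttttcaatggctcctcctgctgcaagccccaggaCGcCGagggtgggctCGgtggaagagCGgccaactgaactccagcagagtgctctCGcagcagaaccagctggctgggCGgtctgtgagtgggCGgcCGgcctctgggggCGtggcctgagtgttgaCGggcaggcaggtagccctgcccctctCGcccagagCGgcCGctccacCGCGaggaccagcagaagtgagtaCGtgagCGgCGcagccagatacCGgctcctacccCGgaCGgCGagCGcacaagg
Ephb4, chr5:137349859-137350158, plus strand: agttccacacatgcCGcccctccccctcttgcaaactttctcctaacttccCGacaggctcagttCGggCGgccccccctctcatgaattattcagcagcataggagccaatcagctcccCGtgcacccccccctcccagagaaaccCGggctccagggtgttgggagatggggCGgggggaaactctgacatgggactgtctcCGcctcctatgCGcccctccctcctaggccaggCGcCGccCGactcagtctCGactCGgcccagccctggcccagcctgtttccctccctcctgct
Efnb2, chr8:8661193-8661492, minus strand: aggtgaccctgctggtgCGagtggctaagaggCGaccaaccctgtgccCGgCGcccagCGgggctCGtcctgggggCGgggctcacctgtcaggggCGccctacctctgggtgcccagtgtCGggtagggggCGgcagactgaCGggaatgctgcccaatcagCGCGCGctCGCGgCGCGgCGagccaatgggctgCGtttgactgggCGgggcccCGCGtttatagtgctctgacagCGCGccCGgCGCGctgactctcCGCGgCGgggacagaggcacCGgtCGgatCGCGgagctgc

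The Efnb2 promoter held 35 CG dinucleotides, those of Ephb2 and Ephb3 held 24 and 23, and that of Ephb4 held 14. Across 32851 promoters of the table the median was 7 and the upper quartile 20. All 10 promoters of the 9 genes, with Efna1 giving 2, held between 10 and 35, the fewest being in Epha2. A single form of the core motif bound by TCF/LEF, the DNA-binding partners of beta-catenin in Wnt signalling, was searched, CTTTGA on both strands. It was found in 1 of the 10 promoters, that of Epha2, starting 209 bases before the start site, and in 16.0% of all promoters. No match says only that these letters are not in these windows.

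**Figure D1:**
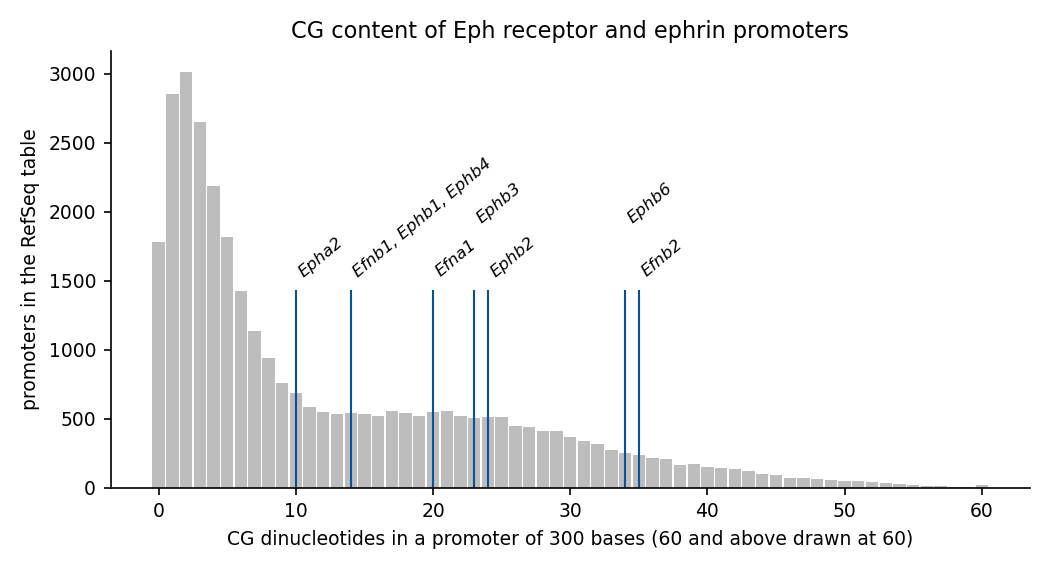
Number of CG dinucleotides (horizontal axis) in each promoter of 300 bases of the RefSeq table, as a count of promoters (grey bars, vertical axis), with blue lines at the 9 matched Eph receptor and ephrin genes. The lines lie between 10 (Epha2) and 35 (Efnb2), to the right of the median of 7.

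The receptors Ephb2, Ephb3 and Ephb4 were higher in ISC than in wild-type villus. Ephb3, which in mouse intestine is also known from Paneth cells, had 16.6 RPKM in ISC versus 1.12 RPKM in wild-type villus, 14.8-fold higher, or 8.29-fold with 1 RPKM added to both values. Ephb4, best known as a receptor of venous endothelium but also made by epithelia, had 40.8 RPKM in ISC versus 5.67 RPKM in wild-type villus, 7.20-fold higher. Ephb2, the crypt receptor of ephrin-B ligands, had 21.5 RPKM in ISC versus 4.54 RPKM in wild-type villus, 4.74-fold higher. For all 3 the authors' deposited table lists q as 0. The log2 ratio of Ephb3 was larger than that of 98.6% of tested genes listed above 0 in both groups, that of Ephb4 larger than 94.8%, and that of Ephb2 larger than 89.3%.

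The ligand genes Efnb1, Efnb2 and Efna1 ran the other way, as did the receptor gene Epha2. Efnb2, the ligand also known from arterial endothelium, had 1.87 RPKM in ISC versus 18.0 RPKM in wild-type villus, 9.66-fold lower in ISC with q listed as 0 in the authors' deposited table. Efnb1, encoding the other main ephrin-B of the gut, had 12.7 RPKM in ISC versus 31.9 RPKM in wild-type villus, 2.52-fold lower in ISC (q = 2.07e-08 in the authors' deposited table). Efna1 had 30.8 RPKM in ISC versus 60.5 RPKM in wild-type villus, 1.97-fold lower in ISC (q = 6.65e-05 in the authors' deposited table). Its receptor gene Epha2 had 13.4 RPKM in ISC versus 25.7 RPKM in wild-type villus, 1.91-fold lower in ISC (q = 0.000122 in the authors' deposited table). The receptor and ligand of that pair were thus both lower in ISC, unlike the EphB and ephrin-B genes, whose called members stood on opposite sides.

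An approximate error can be read from the authors' p if it is taken as a two-sided normal test of the log ratio, an assumption that the sources used here do not state. On that reading the 95% interval of the log2 ratio in the authors' deposited table ran from -1.78 to -0.89 for Efnb1, from -1.43 to -0.52 for Efna1 and from -1.38 to -0.48 for Epha2. No interval can be had where p is listed as 0, as for Ephb2, Ephb3, Ephb4 and Efnb2.

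Efnb3, the third ephrin-B ligand, was near the lower limit of testing at 0.398 RPKM in ISC versus 0.413 RPKM in wild-type villus. It was not called (q = 0.942 in the authors' deposited table), and the interval of its log2 ratio on the same reading was wide, from -1.15 to 1.04. Ephb6, a receptor that lacks kinase activity, had 0.0247 RPKM in ISC versus 0.0197 RPKM in wild-type villus and was not tested. Ephb1, a receptor best known from axon guidance, is listed at 0 in all groups of both tables and was not tested.

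In all, 8 of the 10 genes were tested between ISC and wild-type villus, and 3 were called higher and 4 lower in ISC. The background is high, since 62.8% of 13007 tested genes were called, 32.3% as higher and 30.5% as lower in ISC. The median log2 ratio of the 8 tested genes was -0.49, beside 0.10 over all tested genes. None of the 10 genes shares its locus entry with another gene.

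**Figure D2:**
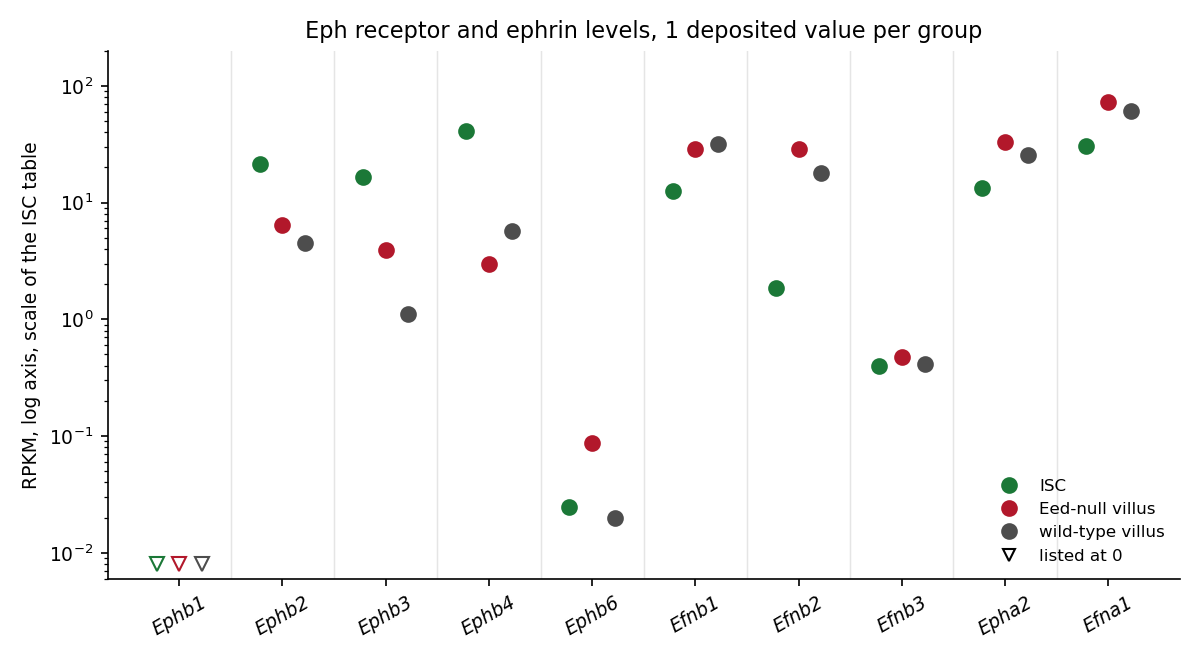
RPKM on a log axis for the 10 genes in ISC (green), Eed-null villus (red) and wild-type villus (grey), 1 authors' value per group, with Eed-null values multiplied by 1.16 to the scale of the ISC table. Ephb2, Ephb3 and Ephb4 are highest in ISC, at 16.6 to 40.8 RPKM, whereas Efnb1, Efnb2, Epha2 and Efna1 are lowest there.

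In Eed-null villus, Ephb3 was higher, Efnb2 was higher and Ephb4 was lower than in wild-type villus. Ephb3 had 3.39 RPKM in Eed-null villus versus 0.963 RPKM in wild-type villus, 3.52-fold higher (q = 1.72e-06 in the authors' deposited table), or 2.24-fold with 1 RPKM added to both values. Efnb2 had 24.6 RPKM in Eed-null villus versus 15.5 RPKM in wild-type villus, 1.58-fold higher (q = 0.0360 in the authors' deposited table). Ephb4 had 2.56 RPKM in Eed-null villus versus 4.88 RPKM in wild-type villus, 1.91-fold lower in Eed-null villus (q = 0.00888 in the authors' deposited table). Read as above from the authors' deposited table, the 95% interval of the fold ran from 2.25 to 5.51 for Ephb3, from 1.16 to 2.16 for Efnb2 and from 0.361 to 0.761 for Ephb4. The Efnb2 call was lost at q of 0.01.

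Among the 8 genes tested there, 2 were called higher in Eed-null villus and 1 lower. Over all 12525 tested genes, 11.4% were called, 7.9% as higher and 3.46% as lower. The median log2 ratio of the 8 was 0.31, beside -0.08 over all tested genes. Genes at 1 RPKM or more in both villus groups had a median log2 ratio of -0.10, and relative to this shift the log2 ratio was 1.92 for Ephb3, 0.77 for Efnb2 and -0.83 for Ephb4. The log2 ratio of Ephb3 was larger than that of 95.8% of tested genes, whereas 3.19% of tested genes had a lower log2 ratio than Ephb4.

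The other 5 tested genes were not called in Eed-null villus. Ephb2 had 5.48 RPKM in Eed-null villus versus 3.91 RPKM in wild-type villus (p = 0.0558 and q = 0.255 in the authors' deposited table). Its fold of 1.40 had an interval on the same reading from 0.992 to 1.99, so a difference near that size is not shown to be absent. Epha2 had 28.3 RPKM in Eed-null villus versus 22.1 RPKM in wild-type villus (q = 0.401 in the authors' deposited table). Efna1 had 62.2 RPKM in Eed-null villus versus 52.0 RPKM in wild-type villus (q = 0.609 in the authors' deposited table).

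Efnb1 was closest to equal, with 24.96 RPKM in Eed-null villus versus 27.5 RPKM in wild-type villus (q = 0.829 in the authors' deposited table). The interval of its fold on the same reading, 0.667 to 1.24, leaves out a change of the size seen for Ephb3. Efnb3 had 0.412 RPKM in Eed-null villus versus 0.355 RPKM in wild-type villus (q = 0.890 in the authors' deposited table), with an interval of the fold from 0.609 to 2.21. Ephb6 had 0.0757 RPKM in Eed-null villus versus 0.0170 RPKM in wild-type villus, below the level at which genes were tested.

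**Figure D3:**
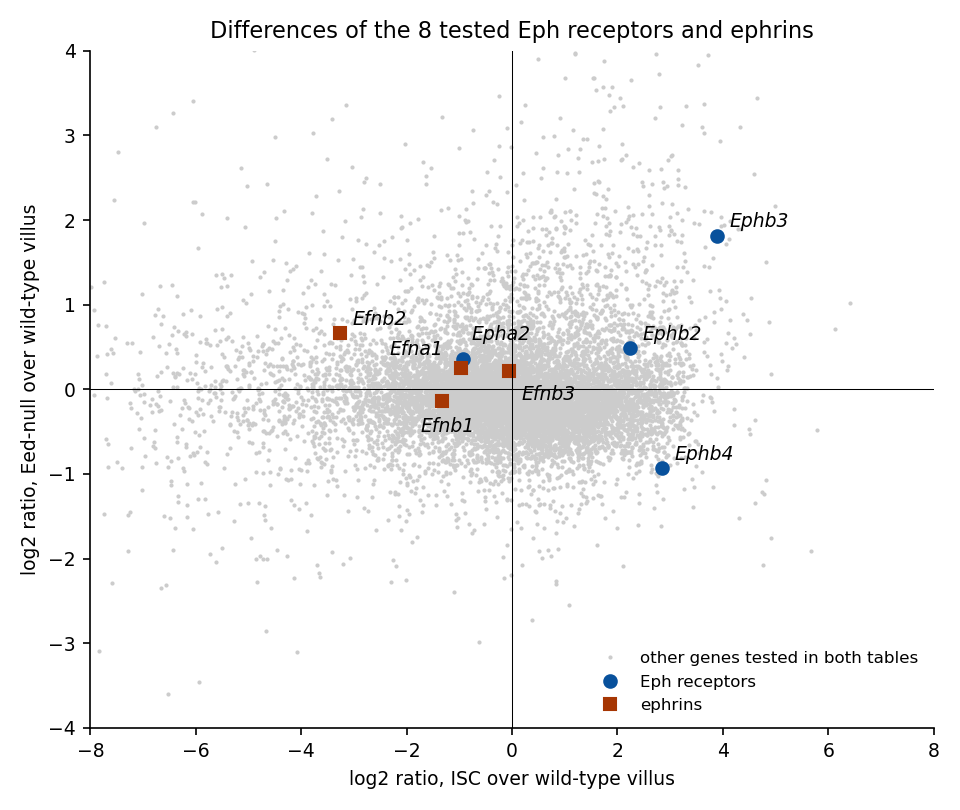
Log2 ratio of ISC over wild-type villus (horizontal axis) against log2 ratio of Eed-null over wild-type villus (vertical axis) for the 8 tested Eph receptors (blue circles) and ephrins (brown squares) among genes tested in both tables and listed above 0 in every group (grey points, 52 of 11960 lie outside the axes). Both axes share the wild-type villus libraries. Ephb2, Ephb3 and Ephb4 lie to the right, with Ephb3 at 1.82 and Ephb4 at -0.93 on the vertical axis, and Efnb2 lies to the left at 0.66.

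The 3 EphB receptors that were higher in ISC thus divided in Eed-null villus, with Ephb3 called higher, Ephb4 called lower and Ephb2 not called; differences between genes were not tested. The wild-type villus libraries enter both comparisons. The tables were scaled separately, and levels across them are set side by side here after multiplying Eed-null values by 1.16, the ratio of the wild-type villus values of the tables, with no test. Ephb3 stood at 3.94 RPKM in Eed-null villus on that scale, between 16.6 RPKM in ISC and 1.12 RPKM in wild-type villus. Ephb4 stood at 2.97 RPKM in Eed-null villus, below both ISC at 40.8 RPKM and wild-type villus at 5.67 RPKM. Efnb2 stood at 28.5 RPKM in Eed-null villus, above both ISC at 1.87 RPKM and wild-type villus at 18.0 RPKM.

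The order of levels changed between the groups. In ISC, Ephb4 was first at 40.8 RPKM, followed by Efna1 at 30.8, Ephb2 at 21.5, Ephb3 at 16.6, Epha2 at 13.4 and Efnb1 at 12.7 RPKM. Efna1 was first in Eed-null villus, at 72.3 RPKM on the scale of the ISC table, followed by Epha2 at 32.8, Efnb1 at 29.0 and Efnb2 at 28.5 RPKM. Wild-type villus also had Efna1 first at 60.5 RPKM, followed by Efnb1 at 31.9, Epha2 at 25.7 and Efnb2 at 18.0 RPKM. With no value per library, neighbours in these orders could not be tested against their spread. In each group Efnb3, Ephb6 and Ephb1 took the last places, with Efnb3 under 1 RPKM.

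Summed over the family, the 5 EphB receptor genes had 79.0 RPKM in ISC, 13.4 RPKM in Eed-null villus versus 11.4 RPKM in wild-type villus on the scale of the ISC table. The 3 ephrin-B genes had 14.9 RPKM in ISC, 58.0 RPKM in Eed-null villus versus 50.4 RPKM in wild-type villus. Summed RNA of EphB receptor genes thus exceeded that of ephrin-B genes 5.29-fold in ISC. Ephrin-B RNA exceeded EphB RNA 4.34-fold in Eed-null villus and 4.44-fold in wild-type villus. Protein was not measured in these libraries.

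The makeup of the sums also differed between the villus groups. Ephb3 made up 29.5% of summed EphB RPKM in Eed-null villus and 9.86% in wild-type villus, whereas Ephb4 made up 22.2% in Eed-null villus and 50.0% in wild-type villus. Efnb2 made up 49.2% of summed ephrin-B RPKM in Eed-null villus and 35.8% in wild-type villus. In ISC the shares were 21.0% for Ephb3, 51.7% for Ephb4 and 12.5% for Efnb2. These shares have no error, since there is 1 value per group.

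**Figure D4:**
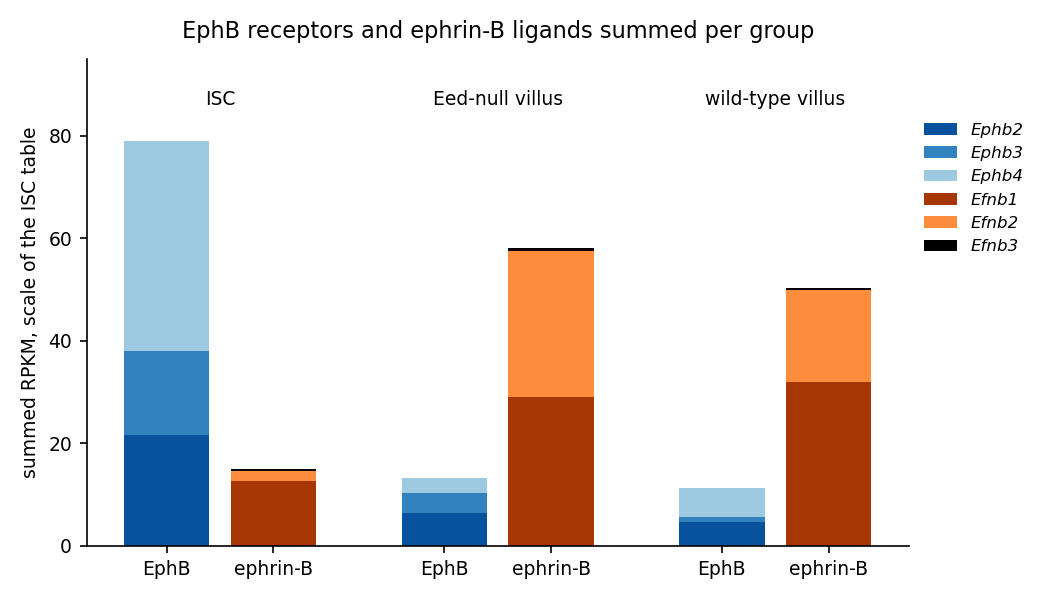
Summed RPKM of EphB receptors (blue shades) and ephrin-B ligands (brown shades) in ISC, Eed-null villus and wild-type villus, on the scale of the ISC table and without Ephb1 and Ephb6, which add under 0.1 RPKM. Receptors stand above ligands in ISC (79.0 against 14.9 RPKM) and below them in both villus groups.

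The other Eph receptors and ephrins were mostly at low levels, and 5 of the 12 were tested between ISC and wild-type villus, all 5 being called, beside 62.8% of all tested genes. The lipid-anchored ligands Efna4 and Efna3 were 10.04-fold and 9.78-fold higher in ISC, with Efna4 at 17.1 RPKM in ISC versus 1.70 RPKM in wild-type villus and Efna3 at 6.23 RPKM in ISC versus 0.637 RPKM in wild-type villus. These 2 ligands therefore stood opposite to Efna1. Efna2 had 0.537 RPKM in ISC versus 0.0149 RPKM in wild-type villus (q = 0.00750 in the authors' deposited table). The receptor gene Epha4 was 4.81-fold higher in ISC, at 1.54 RPKM versus 0.321 RPKM in wild-type villus. Epha1, with a locus entry that it shares, had 8.07 RPKM in ISC versus 75.0 RPKM in wild-type villus, 9.30-fold lower in ISC with q listed as 0 in the authors' deposited table. In Eed-null villus, 1 of the 4 tested was called, beside 11.4% of all tested genes, and it was Efna3, at 2.88 RPKM versus 0.548 RPKM in wild-type villus, 5.25-fold higher (q = 2.59e-05 in the authors' deposited table).

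Genes for proteins that act with Eph receptors or ephrins, such as adaptors and kinases, were called in both directions between ISC and wild-type villus, but in no larger a share than genes at large. Of 44 such genes 41 were tested, and 7 were called higher and 14 lower in ISC, or 51.2%, beside 62.8% of all tested genes. Their median log2 ratio was -0.10. The largest difference was in Kalrn, a guanine nucleotide exchange factor that acts with EphB receptors in neurons, at 0.202 RPKM in ISC versus 9.39 RPKM in wild-type villus. Vav2, another exchange factor, had 6.02 RPKM in ISC versus 26.5 RPKM in wild-type villus. The kinase gene Src had 13.2 RPKM in ISC versus 50.8 RPKM in wild-type villus, and Stat3, a transcription factor, had 9.32 RPKM in ISC versus 39.8 RPKM in wild-type villus.

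Those higher in ISC included Tiam1, an exchange factor for Rac, at 4.12 RPKM in ISC versus 0.556 RPKM in wild-type villus. Ptpn13, a tyrosine phosphatase with PDZ domains, had 0.403 RPKM in ISC versus 0.0324 RPKM in wild-type villus. None of the 40 tested partner genes was called in Eed-null villus in the authors' deposited table, where 0 were higher and 3 lower at an unadjusted p under 0.05, and their median log2 ratio was -0.07. Over all tested genes 11.4% were called there.

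**Figure D5:**
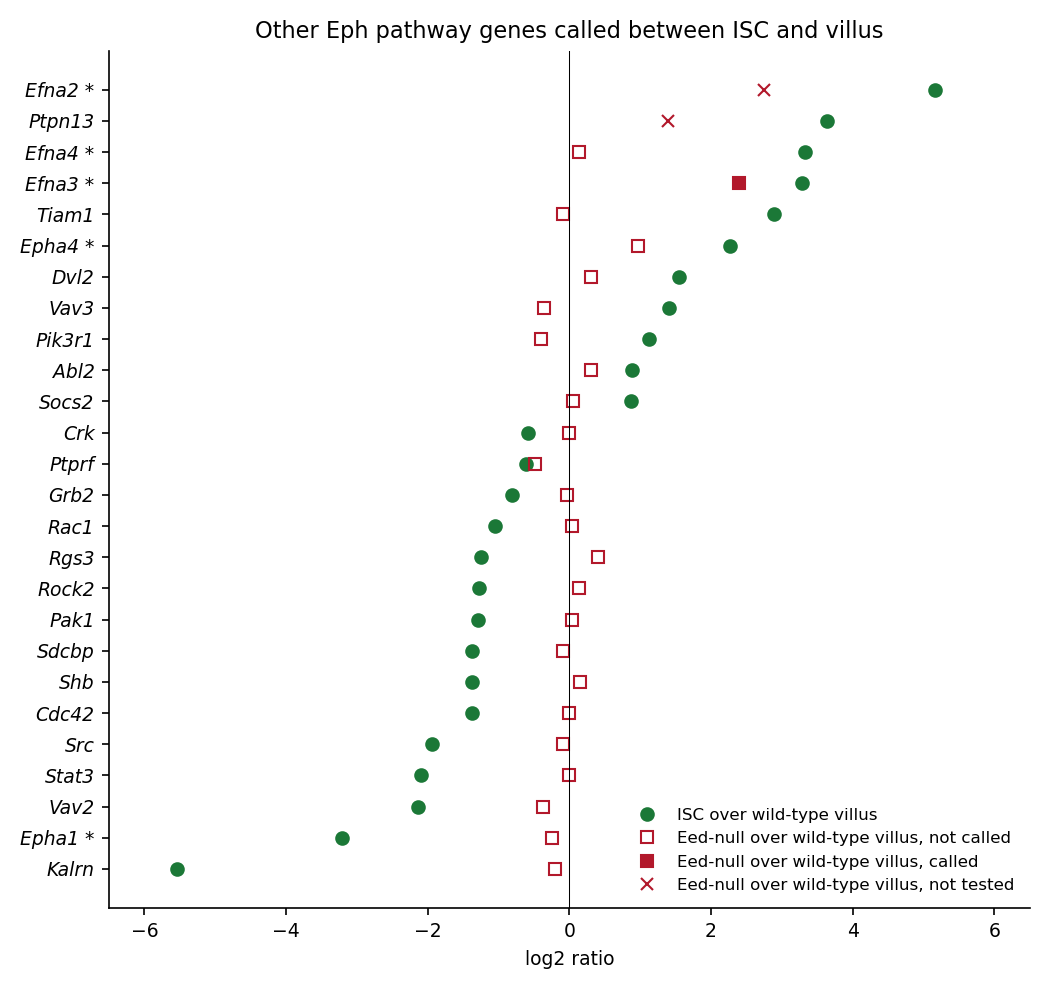
Log2 ratios of the 26 other Eph pathway genes called between ISC and wild-type villus (green circles), with their ratios of Eed-null over wild-type villus (red squares, filled where called, crosses where not tested). Stars mark Eph receptors and ephrins, and the others are partner genes. Kalrn is lowest at -5.54 and Efna2 highest at 5.17 in ISC, and Efna3 alone is called in Eed-null villus.

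Ephb2 and Ephb3 are textbook targets of Wnt signalling, and other crypt Wnt targets were set beside them. In ISC, 14 of 15 tested were called higher, beside 32.3% of all tested genes, and 0 lower (also 0 at an unadjusted p under 0.05 in the authors' deposited table). Their median log2 ratio of 3.05 compares with single values of 2.25 for Ephb2 and 3.89 for Ephb3. Lgr5, whose allele served to sort ISC, is among the targets called higher. Ascl2, a stem cell transcription factor, had 27.4 RPKM in ISC versus 0.969 RPKM in wild-type villus. Cd44, a hyaluronan receptor, had 21.9 RPKM in ISC versus 1.61 RPKM in wild-type villus.

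In Eed-null villus, 5 of 14 tested Wnt targets were called higher, namely Apcdd1, Cd44, Notum, Tcf7 and Sox9, beside 7.9% of all tested genes. None was called lower, and 7 were higher and 1 lower at an unadjusted p under 0.05 in the authors' deposited table. Cd44 had 5.91 RPKM in Eed-null villus versus 1.38 RPKM in wild-type villus (q = 4.37e-09 in the authors' deposited table). Sox9, a transcription factor of stem and Paneth cells, had 4.10 RPKM in Eed-null villus versus 1.99 RPKM in wild-type villus (q = 0.00523 in the authors' deposited table). Apcdd1, an inhibitor of Wnt signalling, had 4.87 RPKM in Eed-null villus versus 0.313 RPKM in wild-type villus, with q listed as 0 in the authors' deposited table. Lgr5 was not called, at 0.592 RPKM in Eed-null villus versus 0.523 RPKM in wild-type villus (q = 0.894 in the authors' deposited table), nor was Axin2, a feedback inhibitor of the pathway, at 10.2 RPKM in Eed-null villus versus 9.12 RPKM in wild-type villus (q = 0.815 in the authors' deposited table). By call alone, Ephb3 stood with Cd44 and Sox9 among genes called higher, and Ephb2 with Lgr5 and Axin2 among genes not called. The median log2 ratio of the 14 tested targets in Eed-null villus was 0.50, beside -0.08 over all tested genes. Single values were 0.49 for Ephb2 and 1.82 for Ephb3.

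Markers of other cells moved with some of these results, and their part in them was not tested. The counts of markers called stand beside 32.3% of all tested genes called higher and 30.5% called lower in ISC. In Eed-null villus, 7.9% of all tested genes were called higher and 3.46% lower. Markers of Paneth cells, which also make EphB3, were higher by call in ISC for 5 of 5 tested and in Eed-null villus for 1 of 6, Ang4. The 6 summed to 6733 RPKM in ISC versus 3794 RPKM in wild-type villus, and to 4649 RPKM in Eed-null villus versus 3266 RPKM in wild-type villus. Much of this was Itln1. The 5 others summed to 2611 RPKM in ISC versus 2286 RPKM in wild-type villus. In Eed-null villus they summed to 2797 RPKM versus 1967 RPKM in wild-type villus. Lyz1, counted in these sums, is listed at 0 in ISC, which can be a failed estimate, versus 1021 RPKM in wild-type villus. Of 7 stem cell markers tested in Eed-null villus, 0 were called higher and 1 lower, Olfm4, in the authors' deposited table (0 and 2 at an unadjusted p under 0.05), while Ephb3 was higher there. The stem cell markers Lgr5, Ascl2, Axin2, Tnfrsf19 and Rnf43 also count among the Wnt targets above, so these lists are not independent. Enterocyte markers were called lower in Eed-null villus for 2 of 9 tested, Treh and Lct, in the authors' deposited table (0 higher and 4 lower at an unadjusted p under 0.05). The median log2 ratio of the tested enterocyte markers was -0.62 there. The 12 leukocyte markers summed to 266 RPKM in ISC versus 321 RPKM in wild-type villus, much of it Cd74, an antigen presentation gene that was not called, at 235 RPKM in ISC versus 181 RPKM in wild-type villus. The 11 others summed to 30.8 RPKM in ISC versus 140 RPKM in wild-type villus. In ISC, 8 of 10 tested leukocyte markers and 9 of 9 tested enterocyte markers were called lower, as were Efnb1, Efnb2 and Efna1. The median log2 ratio in ISC was -2.35 for the leukocyte markers and -6.22 for the enterocyte markers. In Eed-null villus 0 of 10 leukocyte markers were called in the authors' deposited table (1 higher and 2 lower at an unadjusted p under 0.05). The 12 summed to 387 RPKM in Eed-null villus versus 277 RPKM in wild-type villus, and without Cd74 to 83.3 RPKM versus 121 RPKM in wild-type villus. The 10 mesenchyme markers summed to 8.05 RPKM in ISC versus 2.08 RPKM in wild-type villus, mostly Vim, and to 2.92 RPKM in Eed-null villus versus 1.79 RPKM in wild-type villus. Without Vim, the 9 others summed to 0.328 RPKM in ISC versus 0.720 RPKM in wild-type villus. In Eed-null villus these 9 summed to 1.33 RPKM versus 0.620 RPKM in wild-type villus. Of 2 tested mesenchyme markers, 1 was called higher in ISC, Vim, and 0 were called in Eed-null villus. Efnb1 is X-linked, and no label states whether mice were male or female. The Y-linked gene Ddx3y is listed at 0 in ISC and had 6.84 RPKM in wild-type villus. It had 4.86 RPKM in Eed-null villus versus 5.89 RPKM in wild-type villus. If sex differed between ISC and villus, it cannot be told apart from cell type, and its part in these results was not tested. Endothelial markers bear on Ephb4 and Efnb2, which endothelium makes. The endothelial genes Cdh5 and Kdr are listed at 0 in wild-type villus and reached at most 0.00328 and 0.00709 RPKM in the other groups. All other endothelial markers are listed above 0 in wild-type villus, such as Pecam1 at 0.183 RPKM and Tie1 at 0.0924 RPKM in the first table. All 12 endothelial markers summed to 6.27 RPKM in ISC versus 2.22 RPKM in wild-type villus in the first table, and to 1.96 RPKM in Eed-null villus versus 1.91 RPKM in wild-type villus in the second. In ISC, 2 of the 3 tested endothelial markers were called higher, Esam and Egfl7, and 1 lower, Tek. Esam, an adhesion molecule, had 4.27 RPKM in ISC versus 0.352 RPKM in wild-type villus, and the 11 others summed to 2.00 RPKM in ISC versus 1.87 RPKM in wild-type villus. In Eed-null villus the 3 tested endothelial markers did not share a direction. Tek, an angiopoietin receptor, was called lower, at 0.191 RPKM in Eed-null villus versus 0.762 RPKM in wild-type villus. Plvap, a protein of endothelial diaphragms, had 0.544 RPKM in Eed-null villus versus 0.165 RPKM in wild-type villus (p = 0.00868 and q = 0.0687 in the authors' deposited table), and Egfl7 had 0.571 RPKM in Eed-null villus versus 0.374 RPKM in wild-type villus (q = 0.670 in the authors' deposited table). Their median log2 ratio was 0.61, with 1 higher and 1 lower at an unadjusted p under 0.05, while Ephb4 was called lower there.

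Genes most like a member were sought among 11960 genes tested in both tables and listed above 0 in every group, by the distance between their 2 log2 ratios, that is over 3 groups only. Nearest to Ephb3 were Epn3, Arhgdig, Cttnbp2 and Sycn, at distances of 0.0178 to 0.204. Epn3, which encodes an epsin of endocytosis, had 4.86 RPKM in ISC versus 0.325 RPKM in wild-type villus of the first table, and 0.977 RPKM in Eed-null villus versus 0.279 RPKM in wild-type villus of the second. Ephb2 had Polr3d, Camk1, Pla2g12a and Snx10 nearest, at 0.0192 to 0.0445, none of them called in Eed-null villus. Efnb1 had Cpt2, Rab1b, Ergic2 and Slc22a23 nearest, at 0.00860 to 0.0255. Camk1 and Ergic2 share locus entries with other genes.

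The genes lie apart on build mm9 as the files list them, whose start convention is not stated, except that Ephb2 and Epha2 share chromosome 4. Ephb2 runs there from 136209524 to 136391850 and Epha2 from 140857135 to 140885299. Ephb3 runs from 21204867 to 21223377 on chromosome 16, and Ephb4 from 137791336 to 137815750 on chromosome 5. Among the ligands, Efnb2 runs from 8617438 to 8660773 on chromosome 8, Efnb1 from 96331468 to 96344330 on chromosome X and Efna1 from 89075651 to 89084873 on chromosome 3. Efnb3 runs from 69367593 to 69373739 on chromosome 11, Ephb6 from 41555480 to 41570506 on chromosome 6 and Ephb1 from 101824457 to 102257023 on chromosome 9.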

How the data were processed

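RNA of 9 libraries, made with the TruSeq V2 kit, was read as 75 bp single-end reads, per the labels' protocols. The series' other 14 libraries, of chromatin and input DNA, were not used. Both deposited tables give an RPKM value for each gene in each group; the unit is named per the file headers of the first. The second names no unit, and its wild-type villus values equal those of the first divided by 1.16193 (range 1.16192 to 1.16194 over 10353 genes). The p-value and q-value are the authors', per the file headers, and q differs from a Benjamini-Hochberg adjustment over tested genes by at most 8.02e-05. Cufflinks 2.0.1, TopHat2 2.0.6, Cuffdiff and mm9 are listed in the submitters' processing notes without roles.

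Ratios were taken within a table with no pseudocount (Python 3.11.15, pandas 2.3.3), and none against a value of 0, which can be a failed estimate. Calling was tested on simulated data with normal errors. The error implied by p was recovered there by construction, since p was made by the same formula. The coverage of the intervals was not tested, nor whether the authors' p is such a test. The labels call the libraries biological replicates. The 10 genes, the gene lists, the named genes (all members, up to 6 called genes of each list with the largest log2 ratios, and the 4 nearest genes of Ephb2, Ephb3 and Efnb1) and the alternatives were chosen with earlier results of these data known; Axin2, Cdh5, Kdr, Ddx3y and some other list members were named after their values were seen.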

Additional observations from a re-analysis of the deposited data

How the results depend on the processing

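Calls were repeated at q of 0.01 and 0.1, with 1 RPKM required in the higher group, with a fold of 1.5 required, and without genes that share a locus entry, while ratios were repeated with pseudocounts of 1 and 0.1 and with the median log2 ratio subtracted. Of 94 values so obtained, 92 kept their direction and, for counts, stayed within 1.5 times of the reported one. Part of this was fixed in advance and tests nothing. A pseudocount added to both values cannot change the direction of a ratio. Leaving out genes that share a locus entry cannot change the counts of the crypt and villus positioning genes, since none of them shares one. The values also include ratios of Ephb6, which was not tested. Of 48 folds of tested receptors and ephrins, 46 moved by at most 1.5 times, the exceptions being Ephb3 with a pseudocount of 1, at 8.29-fold in ISC and 2.24-fold in Eed-null villus, against 14.8-fold and 3.52-fold with none. At q of 0.01 the genes called higher in Eed-null villus fell to 1, since Efnb2 was lost, and at q of 0.1 the other Eph pathway genes called lower there numbered 2, against 0. The cause was not tested. Leaving out a library was not run, since the tables hold 1 value per group. No paired analysis was possible because the columns carry no replicate numbers. Depth per library is unknown, and no gene under 0.246 RPKM in both groups was tested, so the levels of Ephb6 carry no measure of error.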
